A study of Oryza sativa with 8 samples.

Results

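Callus (unorganised tissue grown in culture) from the scutellum, the absorbing organ of the rice embryo, was exposed to abscisic acid (ABA) or to gibberellin (GA), and the responses to the 2 hormones were set against each other. All 8 arrays of the series entered, 4 titled with ABA and 4 titled with GA, and they were chosen by those titles alone. The variety was Nipponbare, and keywords in the labels link ABA with dormancy and GA with germination. All callus, untreated callus included, was first kept for 30 d on a medium with 10 µM of the synthetic auxin 2,4-D. Pieces were then held for 3 d with 50 µM ABA, with 50 µM GA or with neither. Each array held treated and untreated callus in the dyes Cy3 and Cy5. ABA arrays 20 and 24 and GA arrays 4 and 5 carried the treated sample in Cy3, and ABA arrays 19 and 23 and GA arrays 7 and 8 carried it in Cy5. Whether the arrays came from separate cultures, and whether ABA and GA arrays shared untreated RNA, is not given in the labels, so p-values measure the spread between these arrays, which may be technical. Array numbers, and the lot entry each array has in the labels, are not shared between the hormones, so any effect of which arrays were made or run together and the effect of the hormone cannot be told apart.

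Values below are log2 of treated over untreated callus, and the difference ABA minus GA is positive where the ratio was higher under ABA. A difference of 1 is a 2-fold difference between the ratios. Arrays give ratios and no levels, so the callus itself could not be checked against defining markers. A higher ratio can come from fewer or more cells of a type or from less or more RNA per cell, which cannot be told apart in bulk tissue. Direction was taken from the dye given for each treated sample, with the ratio read as Cy5 over Cy3, the usual form for this kind of array. The base of the deposited logs is not stated and was taken as 10, on which every fold depends. Turned to treated over untreated, ABA arrays correlated with GA arrays over all probes at −0.28 to −0.02 within a dye orientation and at −0.40 to −0.32 across orientations. If the GA ratios ran the other way, ABA minus GA would have to be read as a sum, and that reading is given below as "with the GA arrays turned". In that reading the fitted dye term was left unturned, so dye effects shared by both hormones added to the spread between arrays.

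ABA is a hormone of drought stress and of seed maturation. It is bound by receptors of the PYL family, which then hold back the clade A phosphatases (PP2C), and this frees the kinases that rice calls SAPK to act on transcription factors of late seed genes. GA is bound by the receptor GID1, which leads to the breakdown of DELLA growth repressors, and it is known in cereal grain for turning on starch-degrading enzymes and growth. In germinating cereal grain the hormones are known to act against each other on many genes.

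The responses differed widely. Of 17782 probes fitted, 8889 passed the test for ABA minus GA (limma, adjusted p under 0.05), or 50.0 percent. There were 4042 probes higher under ABA, 22.7 percent of all, and 4847 lower under ABA, 27.3 percent. Most differences were small, since the median size among probes that passed was 0.32, with quartiles of 0.22 and 0.54. Differences of at least 2-fold were found at 820 probes, 4.61 percent of all, of which 309 (1.74 percent of all) were higher and 511 (2.87 percent) lower under ABA. At least 4-fold differences were found at 184 probes, 93 higher and 91 lower under ABA. Arrays of the hormones did not overlap at 6428 probes, 36.1 percent of all, and 819 of the 820 probes 2-fold apart were among them. A large difference that passed itself favours arrays without overlap, so nothing is read from that share. Over all probes the median difference was close to 0, at 0.0014. Of the 820 probes, 170 carry a gene with a RefSeq name, 72 higher and 98 lower under ABA, and the genes described below come from the named ones.

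Taken alone, the ABA mean passed against 0 at 7430 probes (41.8 percent) and the GA mean at 8715 (49.0 percent). Both means passed with opposite signs at 2761 probes, 15.5 percent of all 17782 and 31.1 percent of the 8889 that passed in ABA minus GA. This opposed class held 683 (83.3 percent) of the 820 probes at least 2-fold apart, which describes the choice of those probes, since a large difference itself favours opposite signs. With the GA arrays turned it held 160 of 382 such probes (41.9 percent). A further 3029 (34.1 percent) had a GA mean alone that passed, 1956 (22.0 percent) an ABA mean alone, 731 (8.22 percent) both means in the same direction, and 412 (4.63 percent) neither mean. Among the 2-fold probes higher under ABA, the median ratio was 0.85 under ABA and −0.85 under GA. Among those lower under ABA it was −0.54 under ABA and 0.89 under GA. The GA mean lay farther from 0 than the ABA mean at 490 of the 820 probes (59.8 percent). That was so at 360 of the 511 probes lower under ABA and at 130 of the 309 higher under ABA. The class counts moved with the processing. The opposed class held 974 probes with the GA arrays turned and 1655 with no dye term. The class moved the same way held 441 without ABA array 24, 485 without ABA array 19, 257 with no dye term and 1757 on Cy3 arrays alone.

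**Figure D1:**
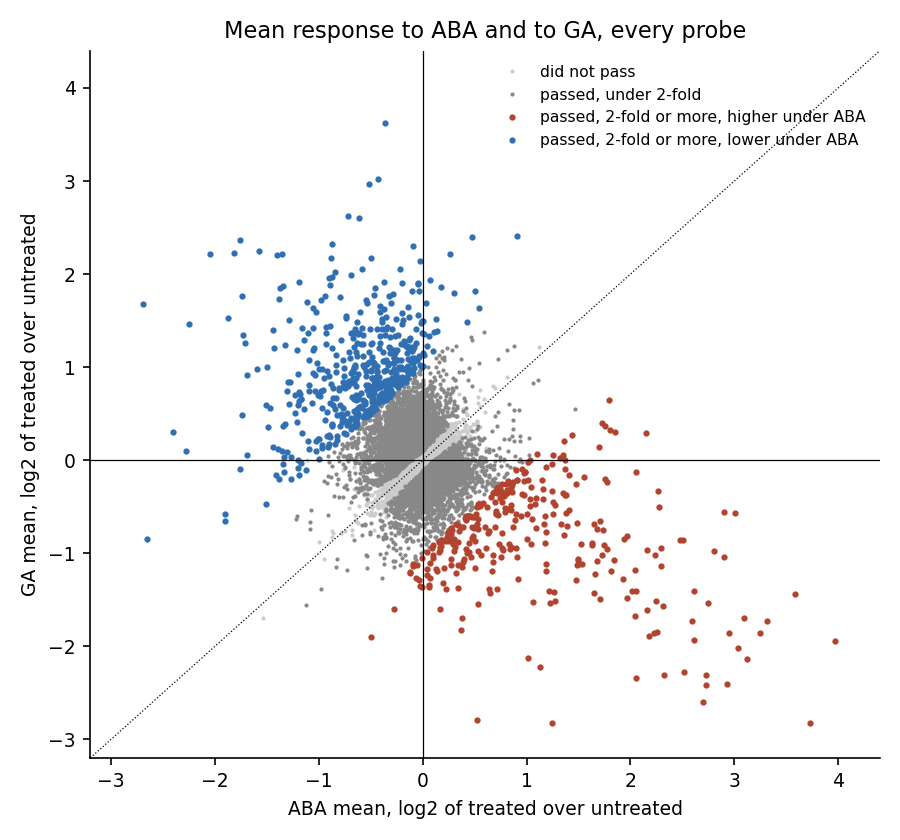
Mean log2 ratio of treated over untreated callus under ABA (horizontal axis) and under GA (vertical axis) for each of the 17782 probes, with the dotted line where both are equal. The 309 red probes, higher under ABA and at least 2-fold apart, lie mainly at lower right, and the 511 blue probes, lower under ABA, mainly at upper left, where the signs oppose.

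Several of the named genes farthest apart with the higher ratio under ABA are known from seed maturation and drying. Per-array values are given for ABA arrays 19, 20, 23 and 24 and for GA arrays 4, 5, 7 and 8, in that order. PM1 (LOC4338635), of the AWPM-19 family of plasma membrane proteins, read 3.80, 3.71, 3.81 and 3.61 on the ABA arrays and −2.97, −2.79, −2.84 and −2.70 on the GA arrays. All ABA values were high and all GA values low, with no overlap, and the difference was 6.56 ± 0.056 (SE), or 94.1-fold (limma adjusted p = 9.59e-12). LTP-2 (LOC4331362), a lipid transfer protein, read 2.83, 2.73, 2.69 and 2.66 on the ABA arrays and −2.53, −2.41, −2.23 and −2.48 on the GA arrays. It too was above untreated callus on every ABA array and below it on every GA array, 35.3-fold apart (5.14 ± 0.066). R1C-Prx (LOC4344045), a peroxiredoxin of the kind found in dormant seed, read 2.24, 2.14, 2.27 and 1.99 on the ABA arrays and −1.75, −1.71, −1.57 and −1.40 on the GA arrays, a difference of 3.77 ± 0.054. EM (LOC4338499), a late embryogenesis abundant (LEA) protein that protects drying cells, read 1.36, 0.98, 1.45 and 1.20 on the ABA arrays and −2.70, −2.73, −2.88 and −2.99 on the GA arrays. Its difference of 4.07 ± 0.11 lay more in the low GA values than in the high ABA values. These sizes rest on the GA direction: with the GA arrays turned, PM1 differed by 0.91, LTP-2 by 0.32, R1C-Prx by 0.55 and EM by −1.58.

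In BGLU26, named as a beta-glucosidase, the 2 parts were still more unequal: 0.37, 0.66, 0.41 and 0.64 on the ABA arrays and −2.83, −2.72, −2.66 and −2.97 on the GA arrays, a difference of 3.31 ± 0.076. PDHE1-A (LOC4340640), named as a subunit of pyruvate dehydrogenase, showed the reverse, with 2.34, 2.30, 2.24 and 2.28 under ABA and −0.54, −0.65, −1.26 and −1.32 under GA. Its GA values split by dye, lower on the arrays with the treated sample in Cy5. The dehydrin-type genes rab25 (1.01 ± 0.092 under ABA and −2.13 ± 0.26 under GA, SD, n = 4 each) and RAB16B (1.27 ± 0.22 under ABA and −1.52 ± 0.16 under GA) were 8.82-fold and 6.91-fold higher under ABA. MFT2, a relative of the flowering regulators that acts in rice seed germination, averaged 1.47 ± 0.11 under ABA and −1.29 ± 0.18 under GA. CLPB1, a chaperone that dissolves protein aggregates, averaged 1.22 ± 0.17 under ABA and −1.54 ± 0.27 under GA, and the zinc finger gene C3H37 1.77 ± 0.086 under ABA and −0.95 ± 0.17 under GA. The homeobox gene HOX24 averaged 1.53 ± 0.12 under ABA and −1.12 ± 0.13 under GA. INO1, which makes the inositol precursor of phytic acid in seed, averaged 1.06 ± 0.14 under ABA and −1.53 ± 0.085 under GA. The alpha-amylase RAmy3A and the phosphatase PP2C59, not counted as clade A here, complete the 15 largest named differences, at 2.39 ± 0.089 and 2.36 ± 0.11. The adjusted p of these 15 genes ran from 9.59e-12 to 1.68e-07 (limma). With the GA arrays turned, the difference was 1.35 for PDHE1-A, 1.05 for PP2C59, 0.82 for C3H37, 0.41 for HOX24 and 0.18 for MFT2, which no longer passed. The other 6 genes (BGLU26, rab25, RAB16B, CLPB1, INO1 and RAmy3A) changed sign. Of those, RAB16B (−0.24), CLPB1 (−0.32) and RAmy3A (−0.0091) did not pass when turned.

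**Figure D2:**
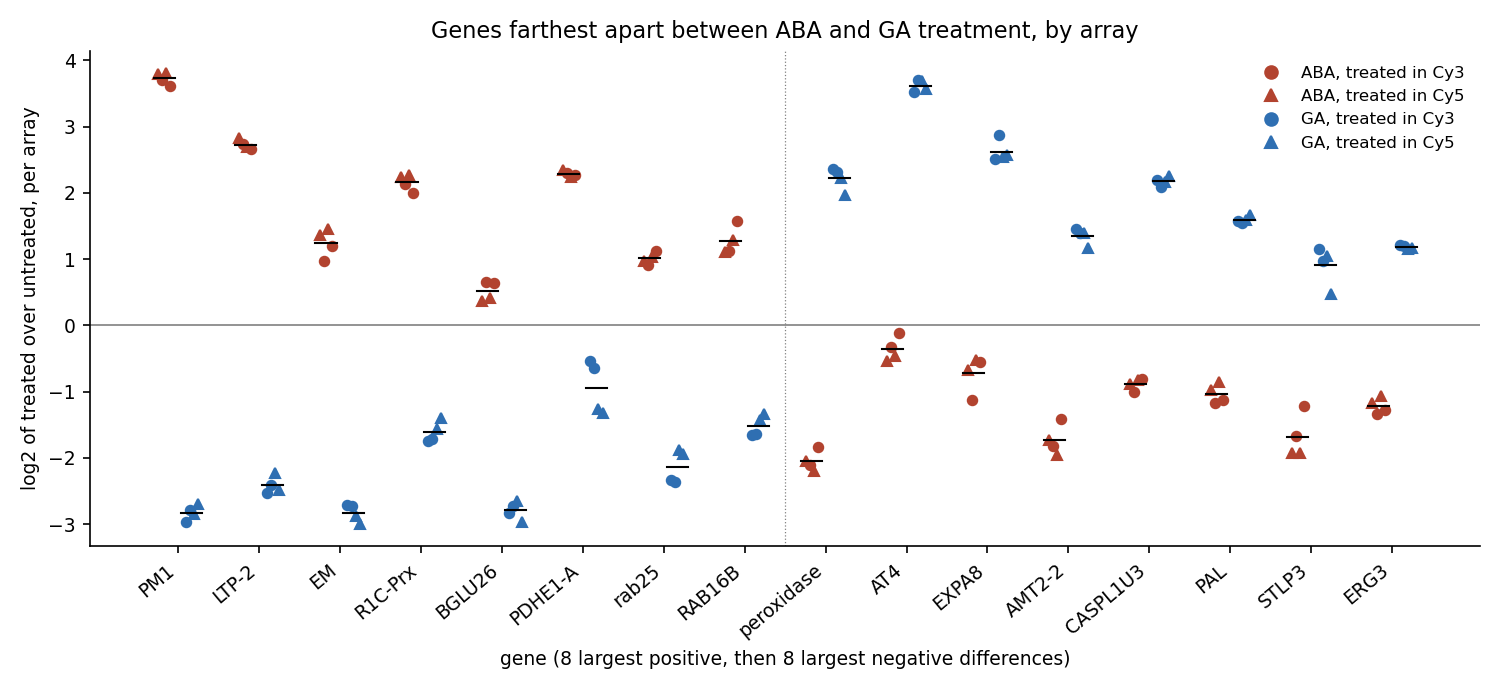
Log2 of treated over untreated callus on each of the 8 arrays for the 8 named genes with the largest positive and the 8 with the largest negative difference ABA minus GA, ABA left of GA. Points are arrays, shaped by the dye of the treated sample, and bars are means of 4 arrays. PM1 sits between 3.61 and 3.81 on the ABA arrays and between −2.97 and −2.70 on the GA arrays. The genes were chosen among those whose arrays do not overlap.

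Several of the named genes farthest apart with the lower ratio under ABA belong to the cell wall and to lignin. The largest named difference was at a gene annotated only as peroxidase (LOC4344277), a name that ties it to neither. This gene read −2.05, −2.11, −2.20 and −1.83 on the ABA arrays and 2.36, 2.31, 2.23 and 1.97 on the GA arrays. It was low on all ABA arrays and high on all GA arrays, 19.2-fold lower under ABA (−4.26 ± 0.079, limma adjusted p = 6.99e-10). AT4 (LOC4325160), an acyltransferase that adds coumarate to lignin building blocks, read −0.54, −0.33, −0.47 and −0.12 on the ABA arrays and 3.52, 3.70, 3.69 and 3.57 on the GA arrays. Its difference of −3.98 ± 0.081 lay mostly on the GA side. EXPA8 (LOC4327217), an alpha-expansin that loosens growing walls, read −0.67, −1.13, −0.53 and −0.56 on the ABA arrays and 2.51, 2.88, 2.54 and 2.57 on the GA arrays, a difference of −3.35 ± 0.14. The beta-expansin EXPB3 (LOC4349349) had the opposite balance, with −2.42, −2.04, −2.58 and −2.07 on the ABA arrays and 0.15, 0.097, 0.22 and −0.091 on the GA arrays. Here the GA mean did not pass against 0, and the difference of −2.37 ± 0.096 lay on the ABA side. With the GA arrays turned it was −2.18, while that of the peroxidase (0.17), AT4 (3.26) and EXPA8 (1.90) changed sign. The turned difference of the peroxidase did not pass.

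CASPL1U3, named for its likeness to the Casparian strip membrane proteins, averaged −0.89 ± 0.090 under ABA and 2.18 ± 0.064 under GA. PAL, phenylalanine ammonia-lyase at the entry to lignin synthesis, averaged −1.03 ± 0.14 under ABA and 1.59 ± 0.056 under GA, and a further PAL probe gave a difference of −2.06 beside −2.62. The ammonium transporter AMT2-2 averaged −1.73 ± 0.23 under ABA and 1.35 ± 0.13 under GA; its other probe gave a smaller difference of −1.19, beside −3.08. GDCSH, a subunit of glycine decarboxylase in photorespiration, averaged −0.21 ± 0.085 under ABA and 2.05 ± 0.052 under GA. Os-UGD4, which makes UDP-glucuronate for wall sugars, averaged −0.79 ± 0.14 under ABA and 1.29 ± 0.031 under GA. The lipoxygenase LOX1.1 averaged −0.54 ± 0.28 under ABA and 1.69 ± 0.15 under GA. The MADS-box genes FDRMADS8 (−0.60 ± 0.34 under ABA and 1.60 ± 0.19 under GA) and MADS55 (−1.09 ± 0.064 under ABA and 1.07 ± 0.041 under GA) encode transcription factors. IAA1 (LOC4334069), an auxin response repressor, STLP3 and ERG3 complete the 15, with differences of −2.30 ± 0.078, −2.60 ± 0.13 and −2.40 ± 0.059. The adjusted p of these 15 genes ran from 5.77e-10 to 8.27e-07 (limma). With the GA arrays turned, STLP3 kept a difference of −0.78, AMT2-2 (−0.38), ERG3 (−0.028) and MADS55 (−0.016) no longer passed, and the other 7 genes of this paragraph changed sign.

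The genes through which ABA acts were described next, by role. Each gene is counted once, by the probe with its smallest p, and by that count 8379 of 15636 genes (53.6 percent) passed, 24.2 percent higher and 29.4 percent lower under ABA, with a median difference of −0.0048 over all genes. Of the ABA receptors, PYL11 was the 1 gene found by name: −1.06, −0.31, −1.06 and −0.41 on the ABA arrays against 0.28, 0.20, −0.0092 and −0.26 on the GA arrays. It was lower under ABA (−0.76 ± 0.081) with no overlap, though the ABA values were lower in Cy5 than in Cy3. Of the 6 clade A phosphatases, which hold the kinases back, 5 were higher and 1 lower under ABA, with a median difference of 1.14. PP2C30 read 2.17, 1.89, 2.16 and 2.0 on the ABA arrays and −0.10, −0.017, −0.25 and −0.16 on the GA arrays, a difference of 2.19 ± 0.077. The ABA arrays were all high and the GA arrays all near untreated callus. PP2C08 averaged 1.56 ± 0.23 under ABA and −0.18 ± 0.090 under GA, and PP2C68 1.73 ± 0.11 under ABA and 0.40 ± 0.19 under GA, the second of them above untreated callus under both hormones. PP2C51 (0.95 ± 0.049) and PP2C09 (0.20 ± 0.041) were also higher under ABA. PP2C53 was lower, at −0.33 ± 0.058, with 0.013 ± 0.040 under ABA and 0.34 ± 0.12 under GA. All 6 were without overlap between the hormones' arrays, as were 70.2 percent of all probes that passed and 36.1 percent of all probes fitted.

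The SAPK kinases did not move together. SAPK9 read −0.91, −1.02, −0.79 and −0.96 on the ABA arrays and 0.89, 0.84, 1.05 and 1.06 on the GA arrays, low on all of the first and high on all of the second (−1.88 ± 0.044). SAPK1 (−0.46 ± 0.081) and SAPK7 (−0.42 ± 0.053) were also lower under ABA. SAPK4 (0.69 ± 0.055; other probe 0.94), SAPK3 (0.55 ± 0.054), SAPK6 (0.29 ± 0.046) and SAPK2 (0.26 ± 0.056) were higher. The other SAPK3 probe gave 0.068 (adjusted p = 0.322, limma). SAPK8 did not pass, with an interval (95 percent, not adjusted over probes) of −8.9e-05 to 0.30 for the difference. SAPK5 did not pass either (−0.041, −0.79 to 0.71), and its ABA values split by dye, −0.94, 0.67, −1.07 and 0.65 on arrays 19, 20, 23 and 24. Its difference was 0.91 with the treated sample in Cy3 and −0.99 with it in Cy5. With PYL11, the list of 10 receptors and kinases held 4 higher and 4 lower members and a median of 0.055.

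Of 6 ABA transcription factors and regulators, 4 were higher under ABA and 2 did not pass, with a median of 0.42. VP1, the seed maturation factor whose maize relative gives viviparous kernels when lost, read 0.38, −0.030, 0.40 and −0.026 on the ABA arrays and −1.02, −1.03, −0.79 and −0.61 on the GA arrays. The hormones did not overlap, and the difference of 1.04 ± 0.049 lay mainly in the low GA values. MODD, which restrains an ABA bZIP factor in rice, averaged 0.26 ± 0.12 under ABA and −0.16 ± 0.077 under GA. MFT2, described above, was another of the 4. LEA proteins and dehydrins are the best-known late targets of the pathway. Of 7 found by name, 6 were higher under ABA and 1 lower, with a median of 1.12. Beside EM, rab25 and RAB16B, LEA19 averaged 0.77 ± 0.16 under ABA and −0.35 ± 0.097 under GA, and RAB16C 0.70 ± 0.14 under ABA and −0.011 ± 0.11 under GA. RAB16D averaged 0.55 ± 0.24 under ABA and −0.045 ± 0.20 under GA. DHN1 (−0.15 ± 0.047) was lower, and its call was lost without any 1 of 5 arrays (ABA 19, 20 or 23 or GA 5 or 8), at adjusted p of 0.052 to 0.0758 (limma). These 4 genes were chosen after their values were seen.

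Genes of ABA supply were split. ABA8OX1, the hydroxylase that begins ABA breakdown, read −0.75, −0.082, −0.82 and −0.091 on the ABA arrays and 1.07, 1.05, 0.86 and 0.45 on the GA arrays. It was 2.45-fold lower under ABA (−1.30 ± 0.093), with no overlap, and its ABA values were near 0 in Cy3 and well below it in Cy5. The phytoene synthases, which feed the carotenoid precursors of ABA, were split: PSY2 was lower (−0.50 ± 0.090, arrays overlapping) and PSY1 higher (0.35 ± 0.055). The other PSY1 probe gave 0.090 (adjusted p = 0.19, limma). In all, 1 of 5 genes of this list was higher, 2 were lower and 2 did not pass, with a median of −0.089.

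Among GA genes, the largest differences came from low values under GA. GA20OX3, an oxidase of a late step of GA synthesis, read −0.18, 0.058, −0.28 and 0.080 on the ABA arrays and −0.95, −0.91, −1.11 and −1.16 on the GA arrays. The ABA values lay around untreated callus and the GA values all well below it, a difference of 0.95 ± 0.044. CIGR2, a GRAS-family gene first described as induced by chitin and GA, read −0.035, 0.12, 0.0022 and 0.063 on the ABA arrays and −1.06, −1.02, −0.86 and −1.02 on the GA arrays (1.03 ± 0.059). The GA receptor gene gid1 averaged −0.040 ± 0.37 under ABA and −0.69 ± 0.19 under GA, without overlap (0.65 ± 0.090). CIGR1 was higher under ABA by 0.39 ± 0.069, with overlapping arrays. KAO, an earlier oxidase of GA synthesis, went the other way, at −0.22 ± 0.098 under ABA and 0.38 ± 0.18 under GA (−0.60 ± 0.067). EUI1, which inactivates GA, and KO2, ent-kaurene oxidase, differed by 0.17 ± 0.045 and 0.15 ± 0.052. The KO2 call was lost without any 1 of 6 arrays (all 4 ABA arrays and GA 4 and 7), at adjusted p of 0.0627 to 0.121. CPS1, the first enzyme particular to GA synthesis, did not pass, with an interval of 0.017 to 0.29. It did pass under several alternatives, such as quantile normalization (limma adjusted p = 0.0210) and without GA array 8 (0.0211). Of 5 genes of GA synthesis and breakdown 3 were higher, 1 lower and 1 did not pass (median 0.15), and of 6 GA receptor and signalling genes 3 were higher, 1 lower and 2 did not pass (median 0.24).

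**Figure D3:**
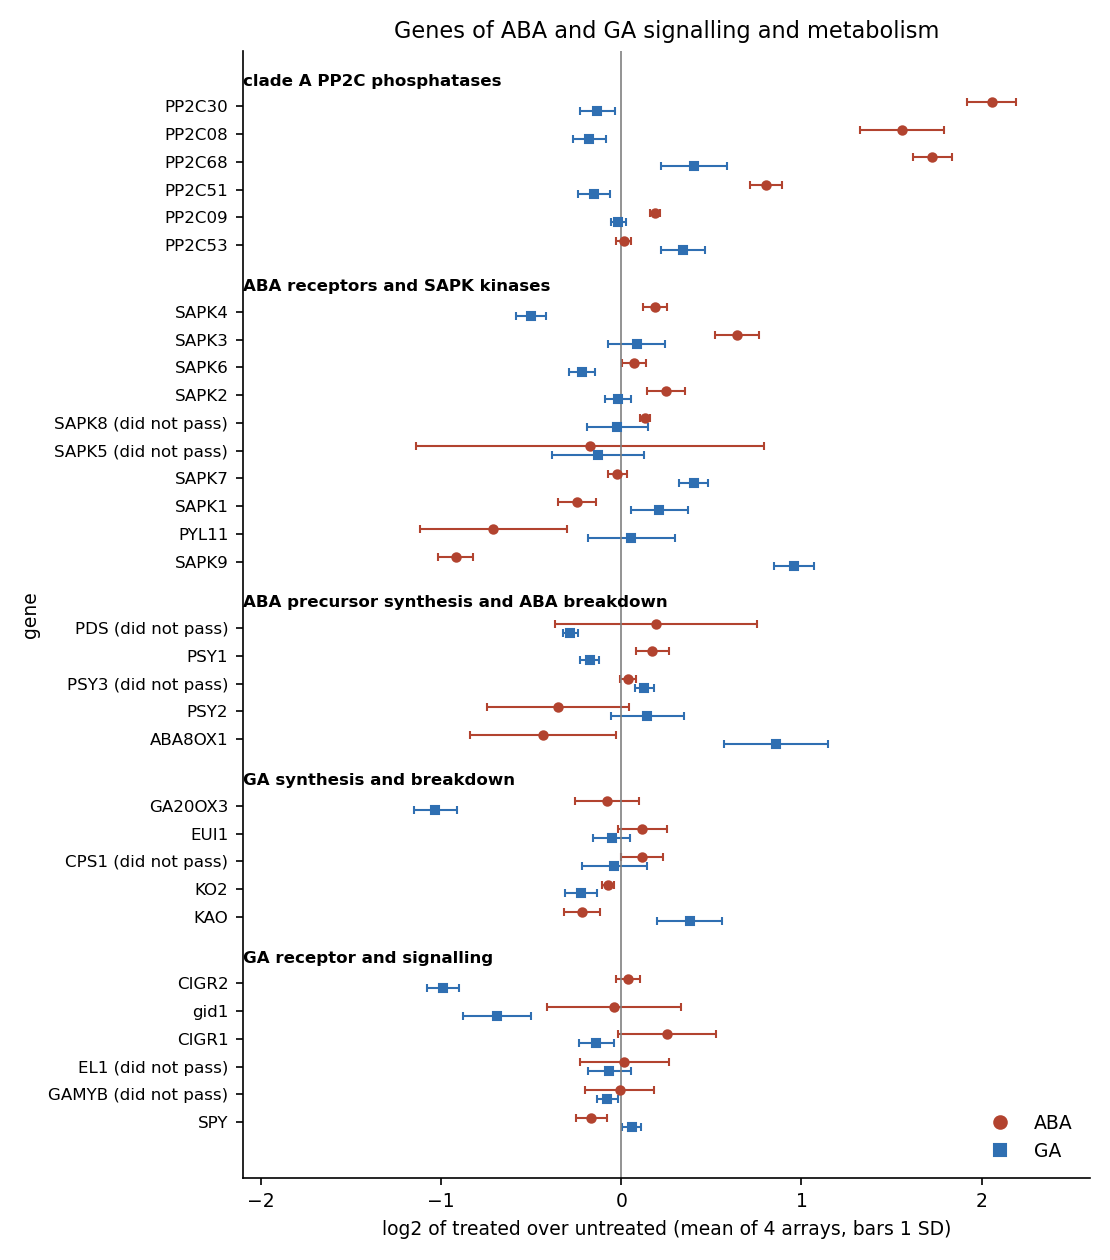
Mean log2 ratio of treated over untreated callus, with bars of 1 SD over 4 arrays, for each listed gene of ABA and GA signalling and metabolism, ABA above GA within a gene. Of the clade A phosphatases, PP2C30, PP2C08, PP2C68 and PP2C51 stand apart to the right under ABA, while GA20OX3, CIGR2 and gid1 stand to the left under GA.

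The alpha-amylases, starch-degrading enzymes that GA is known to turn on in cereal aleurone, did not share a direction. RAmy3A read 0.79, 1.75, 0.62 and 1.59 on the ABA arrays and −0.87, −0.87, −1.38 and −1.67 on the GA arrays, so it was higher under ABA without overlap (2.39 ± 0.089). Its ABA values were higher in Cy3 and its GA values lower in Cy5. RAmy3E was higher under ABA as well (0.44 ± 0.067), with overlapping arrays. RAmy3D read −1.11, 0.64, −1.03 and 0.50 on the ABA arrays and 0.95, 0.90, −0.80 and −0.44 on the GA arrays, where the dye of the treated sample moved the values more than the hormone did. Its difference of −0.41 ± 0.079 did not pass with no dye term (limma adjusted p = 0.611), and neither did those of RAmy2A (−0.27 ± 0.054; 0.147) and RAmy3E (0.307). RASI, a seed inhibitor of amylase and subtilisin, averaged −1.39 ± 0.42 under ABA and −0.20 ± 0.43 under GA, lower under ABA without overlap (−1.19 ± 0.11). Over the 8 genes of this list, with the MYB regulators of amylase included, 3 were higher, 4 lower and 1 did not pass, with a median of −0.16.

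More wall-loosening genes were lower than higher under ABA. Of 29 expansins and xyloglucan enzymes, 16 were lower under ABA, 7 higher and 6 did not pass, with a median of −0.26. Beside EXPA8 and EXPB3, XTH8, a xyloglucan-cutting and -joining enzyme known in rice to respond to GA, averaged −0.28 ± 0.086 under ABA and 0.88 ± 0.053 under GA. Genes for endoglucanases and beta-glucosidases were mixed, with 12 higher, 8 lower and 15 of 35 that did not pass (median 0.11). BGLU16 averaged −0.35 ± 0.060 under ABA and 1.40 ± 0.18 under GA, but another BGLU16 probe gave 0.29 beside −1.76. GLU14, an endoglucanase, was below untreated callus under both hormones, farther so under ABA (−1.90 ± 0.030 under ABA and −0.58 ± 0.13 under GA).

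Of 39 genes of lignin synthesis and the Casparian strip, the lignified barrier of the root endodermis, 16 were lower under ABA, 9 higher and 14 did not pass (median −0.052). AT4, CASPL1U3 and PAL were described above. CASP1, a membrane scaffold of the strip, read −0.041, −0.14, 0.13 and −0.11 on the ABA arrays and 1.69, 1.63, 1.83 and 2.11 on the GA arrays, near untreated callus under ABA and high on all GA arrays (−1.86 ± 0.070). The coumarate ligase 4CL-3 averaged 0.18 ± 0.051 under ABA and 1.86 ± 0.084 under GA. CASPL2B1 went the opposite way (1.70 ± 0.42 under ABA and 0.14 ± 0.20 under GA), and its other probe gave 0.29. CASPL2A1, chosen after its values were seen, was also higher under ABA (1.47 ± 0.038, other probe 0.15).

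Of 6 seed maturation and storage genes, PM1, R1C-Prx and TIP3;2 were higher under ABA, and 3 did not pass (median 0.23). TIP3;2, a vacuolar aquaporin of seeds, averaged 0.19 ± 0.20 under ABA and −0.16 ± 0.14 under GA. Of 6 lipid transfer proteins 3 were higher, 2 lower and 1 did not pass (median 0.21). LTP2-B averaged 0.90 ± 0.11 under ABA and −0.22 ± 0.18 under GA, with 0.26 from its other probe beside 1.12. LTP110-A was above untreated callus under both hormones and a little lower under ABA (0.81 ± 0.26 under ABA and 1.18 ± 0.28 under GA, arrays overlapping).

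Of 63 auxin genes 28 were lower under ABA, 16 higher and 19 did not pass, with a median of −0.11. The response repressor IAA12 read −1.25, −0.69, −1.25 and −0.72 on the ABA arrays and 1.01, 0.98, 0.51 and 0.46 on the GA arrays, opposed without overlap (−1.72 ± 0.039). ARGOS, an auxin-induced regulator of organ size in Arabidopsis, averaged −0.58 ± 0.10 under ABA and 1.11 ± 0.051 under GA. The auxin efflux carriers differed in kind: PIN3A was low under ABA alone (−1.76 ± 0.18 under ABA and −0.094 ± 0.12 under GA) and PIN2 high under GA alone (−0.070 ± 0.31 under ABA and 1.41 ± 0.28 under GA). GH3-8, which conjugates auxin to amino acids, went the other way, with 0.088, 0.016, 0.12 and 0.0022 on the ABA arrays and −1.42, −1.43, −1.32 and −1.30 on the GA arrays (1.42 ± 0.037). IAMT1, which methylates auxin and was chosen after its values were seen, was lower under ABA (−1.30 ± 0.074).

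Of 28 cytokinin genes 8 were higher, 10 lower and 10 did not pass (median 0.032). The 3 of smallest p, the response regulators RR9, RR4 and RR6, which damp cytokinin signalling, were lower under ABA. Other response regulators of the list are not described here. RR9 read −0.43, −0.45, −0.21 and −0.40 on the ABA arrays and 1.64, 1.57, 1.74 and 1.56 on the GA arrays (−2.0 ± 0.062), RR4 differed by −0.91 ± 0.093 and RR6 by −0.72 ± 0.048. LOGL6, of the family that frees active cytokinin, differed by −1.07 ± 0.13 and was chosen after its values were seen. Of 9 ethylene genes 2 were higher, 4 lower and 3 did not pass (median −0.11). ACO1, the last enzyme of ethylene synthesis, was low under GA alone (0.071 ± 0.068 under ABA and −1.27 ± 0.075 under GA), the receptor ETR3 was lower under ABA (−1.36 ± 0.075) and the receptor ETR4 higher (0.59 ± 0.076). Of 28 jasmonate genes 2 were higher, 12 lower and 14 did not pass, with a median of −0.043 that turned positive under quantile normalization and on Cy5 arrays alone. The JAZ proteins repress jasmonate responses: JAZ7 averaged −0.80 ± 0.37 under ABA and 0.75 ± 0.23 under GA and JAZ4 −0.23 ± 0.043 under ABA and 0.54 ± 0.077 under GA. OPR10, named as an oxophytodienoate reductase, averaged −0.62 ± 0.14 under ABA and 0.57 ± 0.026 under GA.

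Of 17 heat shock proteins, 11 were higher under ABA, 2 lower and 4 did not pass, with a median of 0.25. HSP18.6 read 1.31, 1.17, 1.21 and 1.08 on the ABA arrays and −1.27, −1.12, −0.98 and −1.09 on the GA arrays, high on all of the first and low on all of the second (2.30 ± 0.054). CLPB-C, a plastid relative of CLPB1 chosen after its values were seen, differed by 0.89 ± 0.081. HSP17.9B went the other way (−0.52 ± 0.16 under ABA and 1.16 ± 0.071 under GA), but its other probe gave 0.48 beside −1.68, in the opposite direction.

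Of 42 sugar enzymes and transporters 11 were higher, 16 lower and 15 did not pass (median −0.018), with relatives on either side. SWEET1b, of the SWEET sugar exporters, read 0.48, 0.95, 0.54 and 0.90 on the ABA arrays and −1.22, −1.19, −1.61 and −1.53 on the GA arrays (2.11 ± 0.042). SWEET15 was also higher under ABA (1.32 ± 0.091) and SWEET11 lower (−1.07 ± 0.19). Sucrose synthases split sucrose: SUS4 was higher (1.12 ± 0.044), as was SUS3 (0.93 ± 0.11), and SUS2 lower (−1.21 ± 0.038; other probe −1.52). The cell-wall invertase CIN4 was lower (−1.71 ± 0.094). SWEET15, SWEET11, SUS3 and CIN4 were chosen after their values were seen.

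Of 23 aquaporins, membrane channels for water, 12 were lower under ABA, 5 higher and 6 did not pass, with a median of −0.17. PIP2;5 (0.13 ± 0.19 under ABA and 0.71 ± 0.071 under GA) and PIP1;2 (0.12 ± 0.23 under ABA and 0.69 ± 0.22 under GA; other probe −0.78 beside −0.57) were high under GA. Their ABA values split by dye, with 0.30, −0.060, 0.30 and −0.0041 for PIP2;5 and 0.30, −0.087, 0.34 and −0.071 for PIP1;2, at or below 0 in Cy3. PIP1;1 was high under GA alone (0.0068 ± 0.13 under ABA and 0.46 ± 0.14 under GA), but its other probe gave 0.35 beside −0.45. PIP1;3 (−0.60 ± 0.065) and TIP2;1 (−0.59 ± 0.079), chosen after their values were seen, were lower under ABA too. Of 36 redox enzymes 11 were higher, 14 lower and 11 did not pass (median 0.018). Beside the peroxidase, the glutaredoxin GRXS2 (−1.79 ± 0.047; other probe −1.37) and the ascorbate peroxidase APX2 (−0.79 ± 0.053; other probe 0.051) were lower under ABA.

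Phytoalexins are antimicrobial compounds of the plant. Of 10 genes that make the diterpenoid ones, 5 were higher under ABA, 0 were lower and 5 did not pass, with a median of 0.17. CPS2, at the entry to these compounds, read 1.40, 1.56, 1.30 and 1.19 on the ABA arrays and 0.10, 0.26, 0.22 and 0.23 on the GA arrays, high on all ABA arrays (1.16 ± 0.079). CYP76M8 differed by 0.72 ± 0.11, with 0.022 from its other probe, and KSL10 by 0.37 ± 0.061, with overlapping arrays. Of 15 pathogenesis-related proteins and chitinases 5 were higher, 4 lower and 6 did not pass (median −0.020). PBZ1, induced by the plant activator probenazole, read 2.11, 2.22, 2.13 and 2.15 on the ABA arrays and 0.21, 0.23, 0.42 and 0.31 on the GA arrays (1.86 ± 0.055). The chitinase chia4a averaged 0.79 ± 0.046 under ABA and −0.51 ± 0.084 under GA. RIXI, a xylanase inhibitor, was above untreated callus under both hormones and lower under ABA (0.42 ± 0.0053 under ABA and 1.48 ± 0.042 under GA). Cht1, a chitinase chosen after its values were seen, averaged 1.35 ± 0.47 under ABA and 0.057 ± 0.23 under GA.

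Few genes of DNA copying passed. Of 25 DNA replication genes 5 were higher, 3 lower and 17 did not pass (median 0.052). RPA70b (−0.43 ± 0.040) and MCM3 (−0.27 ± 0.053, arrays overlapping) were lower under ABA and ORC4 (0.23 ± 0.042) higher. PCNA, the sliding clamp of the replication fork, chosen after its values were seen, was below untreated callus under both hormones (−0.36 ± 0.12 under ABA and −0.54 ± 0.12 under GA). Of 31 cyclins, kinases and kinase inhibitors 3 were higher, 14 lower and 14 did not pass (median −0.057). The D-type cyclins CYCD5-2 (−0.77 ± 0.20 under ABA and 0.45 ± 0.25 under GA) and CYCD4-2 (−0.52 ± 0.10 under ABA and 0.23 ± 0.055 under GA) and the kinase CDKG-1 (0.080 ± 0.13 under ABA and 0.77 ± 0.12 under GA) were lower under ABA. So was KRP1, an inhibitor of these kinases chosen after its values were seen (−1.14 ± 0.091). Of 17 ribosomal proteins 3 were higher, 6 lower and 8 did not pass (median 0.0031). The higher ones, 60SP0 (0.51 ± 0.060), CL27 (0.42 ± 0.058; other probe 0.080) and CL18 (0.31 ± 0.060), were low under GA.

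Of 20 meristem homeobox and growth-regulating factors 5 were higher, 5 lower and 10 did not pass (median −0.042). GRF4, a transcription factor that promotes growth, read 0.43, 0.33, 0.50 and 0.26 on the ABA arrays and −1.68, −1.71, −1.85 and −1.57 on the GA arrays, above untreated callus on all ABA arrays and well below it on all GA arrays (2.08 ± 0.069). WOX11, a homeobox gene of crown root formation, averaged 0.32 ± 0.062 under ABA and −0.40 ± 0.12 under GA. The homeobox genes OSH71 (−0.19 ± 0.046 under ABA and 0.74 ± 0.068 under GA) and HOS66 (−1.05 ± 0.073, chosen after its values were seen) were lower under ABA. Of 22 photosystem and chlorophyll genes, which stand in for leaf-like tissue, 12 were higher under ABA, 0 lower and 10 did not pass (median 0.18). Those of smallest p were PSBW, a photosystem II protein (0.48 ± 0.25 under ABA and −0.82 ± 0.11 under GA), CAO, which makes chlorophyll b (0.48 ± 0.26 under ABA and −0.61 ± 0.16 under GA), and the light-harvesting gene RCABP69 (0.29 ± 0.19 under ABA and −0.16 ± 0.18 under GA). Of 6 root markers CASP1 was lower and QHB, of the root quiescent centre, higher (0.42 ± 0.078), and 4 did not pass, Lsi1 among them (0.079, interval −0.025 to 0.18). The median of the root list was 0.089. The part of such tissue in the results was not tested.

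**Figure D4:**
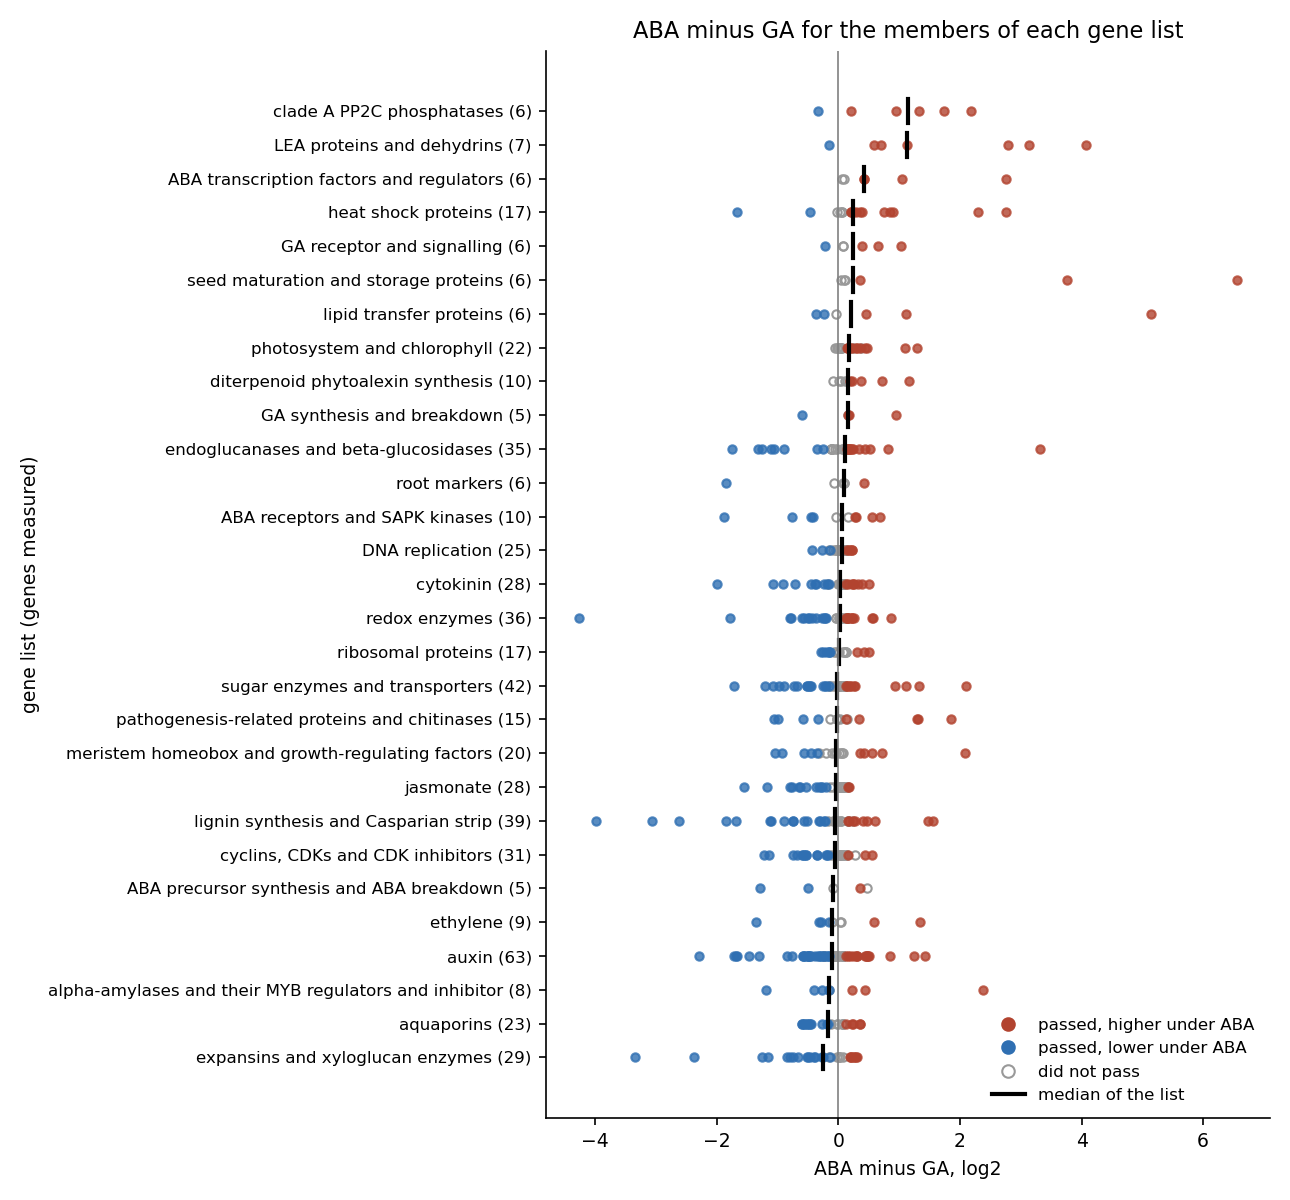
Difference ABA minus GA (log2) for each measured member of 29 gene lists, ordered by the list median (black bar), with the number of genes in brackets. Clade A phosphatases and LEA proteins lie farthest to the right, with medians of 1.14 and 1.12, and expansins and xyloglucan enzymes farthest to the left, with −0.26.

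Set beside the 53.6 percent of all genes that passed, the share was 79.3 percent of the expansins and xyloglucan enzymes, 76.5 percent of the heat shock proteins, 73.9 percent of the aquaporins and 69.8 percent of the auxin genes. With the GA arrays turned these shares were 51.7, 29.4, 52.2 and 54.0 percent, against 31.8 percent of all genes. Before turning, the share was 32.0 percent of the DNA replication genes. It was near the share of all genes in the cyclins (54.8 percent), the photosystem genes (54.5 percent) and the ribosomal proteins (52.9 percent). With the GA arrays turned, DNA replication stood at 32.0 percent, near the 31.8 percent of all genes. The cyclins then stood at 41.9, the photosystem genes at 13.6 and the ribosomal proteins at 58.8 percent. All 7 LEA genes and all 6 clade A phosphatases passed, in short lists chosen with earlier results known.

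The classes other than the opposed one can be read from their largest named members. Where the ABA mean alone passed against 0, the largest differences were those of EXPB3, PP2C30, PP2C08, PIN3A and CASPL2B1. A mean that did not pass does not show that a response was absent: PP2C08 read −0.31 to −0.12 on the GA arrays. Where the GA mean alone passed, the largest differences were those of CASP1, PIN2, GH3-8, GLO4 and ACO1. GLO4, a glycolate oxidase of photorespiration, averaged 0.13 ± 0.045 under ABA and 1.52 ± 0.13 under GA. Where both hormones moved a gene the same way, the largest differences were those of PBZ1, 4CL-3, C3H10, GLU14 and PP2C68. The zinc finger gene C3H10 averaged 1.80 ± 0.23 under ABA and 0.32 ± 0.18 under GA. Where neither mean passed against 0, the 5 largest differences were CBP1 (−0.42 ± 0.15; other probe 0.095, adjusted p = 0.34), CRSH3, of plastid stress signalling (0.40 ± 0.13), GSK2, a kinase of brassinosteroid signalling (−0.37 ± 0.12), the cytochrome P450 CYP703A3 (0.32 ± 0.11) and the proline transporter proT (−0.30 ± 0.10). In all 5 the hormones' arrays overlapped. Each call was lost when any 1 of several arrays was left out: ABA 20, 23, 24 or GA 4, 5, 7 for CBP1; ABA 19, 20, 24 or GA 4, 5 for GSK2; ABA 19, 20, 24 or GA 4, 8 for CRSH3; ABA 20, 24 or GA 4, 5, 8 for CYP703A3; ABA 19, 23, 24 or GA 4 for proT. The adjusted p of these repeats was 0.0508 to 0.121 (limma).

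The contrast was also taken within each dye orientation, a check added after the data were seen. The contrast differed between orientations at 1192 of the 17775 probes with a value on every array (6.71 percent). Of the 144 genes named here it differed in 11, among them EM (3.81 in Cy3 and 4.34 in Cy5), PDHE1-A (2.88 and 3.58), rab25 (3.37 and 2.91) and PP2C30 (2.0 and 2.37). The hormones' arrays overlapped at 16 of the 140 named genes that passed and at 2648 of the 8889 probes that passed (29.8 percent). Many of the named genes were chosen for not overlapping, so nothing is read from the lower share among them.

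**Figure D5:**
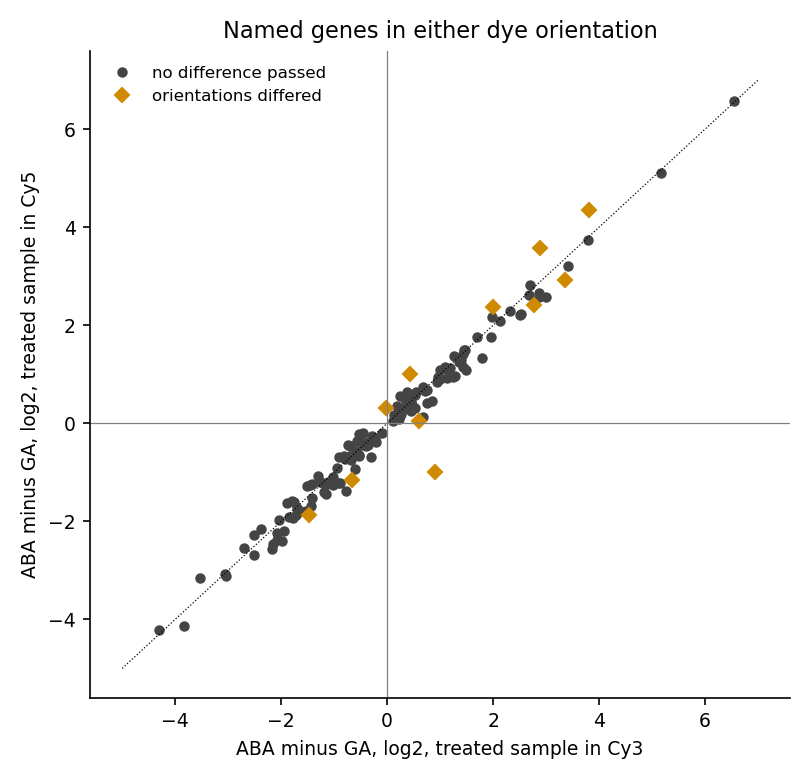
Difference ABA minus GA (log2) for the 144 named genes on the arrays with the treated sample in Cy3 (horizontal axis) and in Cy5 (vertical axis), with the dotted line where both are equal. Orange diamonds are the 11 genes whose difference itself differed between orientations, and SAPK5 lies at lower right with 0.91 and −0.99.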

How the data were processed

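Per the labels, 8 two-colour oligo arrays of rice (22575 features) each compared treated with untreated callus. The authors deposited LOWESS-normalized log ratios of unstated base, read here as log10 ratios. Per the labels these are treated over untreated, but arrays of opposite dye orientation ran against each other as deposited (correlations of −0.60 to −0.51 under ABA, −0.81 to −0.70 under GA). A fixed dye order was therefore assumed, though these correlations cannot tell which order it was. The ratio was read as Cy5 over Cy3, the usual form, and turned where Cy3 held the treated sample. With the opposite order on all arrays, every sign given here would be reversed. Values were multiplied by 3.32 to give log2, and a probe needed 3 values per hormone. Exact zeros were set missing, 92 to 243 per array over all features and 1 to 6 among features with a listed gene. Spot intensities were not used here, so the number of arrays limits the precision.

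Features without a listed gene (4787) were left out. RefSeq names (ASM3414082v1) covered 2129 genes on 2471 probes. Gene lists were matched on these names and their synonyms, so family members without such a name are not counted. limma 3.58.1 in R 4.3.3 fitted an ABA mean, a GA mean and 1 dye term (5 residual degrees of freedom, median SE of the difference 0.0560), with Benjamini-Hochberg adjustment over 17782 probes. On simulated data it recovered 94 to 98 percent of differences of 0.5 and 34 to 50 percent of those of 0.25. False calls made up 4.97 to 6.18 percent of the simulated calls. The simulated noise was independent between arrays, and whether that holds for these arrays was not tested.

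Members and lists were chosen with earlier results of these data known. Named genes are the 15 largest differences in each direction without overlap, 3 of smallest p per list, the 5 largest per class and genes of ABA and GA signalling, synthesis and breakdown by role (126 genes), and 18 more were chosen after their values were seen. ± is SD over 4 arrays for a hormone's mean and SE for a difference. The alternatives covered the dye term, normalization, moderation, array weights, the p threshold, zeros, probe sets, either dye orientation alone, GA arrays turned and each array left out. Promoter motifs were not analysed here.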

Additional observations from a re-analysis of the deposited data

Results flagged for a closer look

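In 9 of the 288 groups of 4 arrays behind the named genes, 1 array lay far from the other 3 of its hormone, judged by its gap to the nearest of them as a share of the group's range. Chance gives such a gap in about 1 of 20 groups of 4 like arrays; here each group holds 2 arrays of each dye orientation, so that share is only a rough guide. On GA array 7, the zinc finger gene C3H37 read −0.69 against −1.06 to −1.02 on the other GA arrays, the replication protein gene RPA70b 0.23 against 0.15 to 0.16, the kinase gene GSK2 0.30 against 0.12 to 0.14 and the sugar exporter gene SWEET11 1.96 against 0.85 to 1.03. On GA array 8, the MADS-box gene FDRMADS8 read 1.31 against 1.66 to 1.73 on the other GA arrays, the phosphatase gene PP2C08 −0.31 against −0.14 to −0.12 and the sucrose synthase gene SUS3 −0.055 against 0.023 to 0.035. On GA array 5, the expansin gene EXPA8 read 2.88 against 2.51 to 2.57 on the other GA arrays. On ABA array 20, the lipoxygenase gene LOX1.1 read −0.13 against −0.70 to −0.63 on the other ABA arrays. At all of these genes but GSK2, the difference ABA minus GA still passed with any 1 array left out.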

How the results depend on the processing

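The 820 probes at least 2-fold apart numbered 813 to 836 without any 1 array and kept within 1.5 times of that number under every alternative but 1, the GA arrays turned. Without 1 array, 7560 to 9913 probes passed, 3288 to 4743 of them higher and 4272 to 5170 lower under ABA, with 2170 to 3310 opposed, 1455 to 2094 under ABA alone, 2525 to 3225 under GA alone, 441 to 1046 moved the same way and 302 to 464 with neither mean past. With no dye term 2439 probes were higher under ABA, 1655 opposed, 1215 under ABA alone and 257 the same way. A dye term for each hormone gave 1168 the same way. Array weights gave 4314 opposed and 1503 the same way, and an adjusted p under 0.01 gave 1806 and 329. On Cy3 arrays alone 4232 were opposed, 1757 the same way and 186 neither; on Cy5 arrays alone 2631 were higher under ABA, 1574 opposed, 436 the same way and 218 neither. The median of the jasmonate list turned to 0.017 under quantile normalization and 0.015 on Cy5 arrays alone. Of 140 named genes that passed, 22 lost the call under at least 1 alternative other than the GA arrays turned (15 with no dye term, 15 on Cy5 arrays alone), and 7 without 1 array: CBP1, CRSH3, CYP703A3, DHN1, GSK2, KO2 and proT. Among named genes that had not passed, CPS1, Lsi1, SAPK5 and SAPK8 each passed under at least 1 alternative. The cause was not tested.

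With the GA arrays turned, 5379 probes passed (2678 higher and 2701 lower under ABA), 382 at least 2-fold, with 974 opposed, 1064 under ABA alone and 255 neither. The dye term was not turned with the GA values, so a dye effect shared by both hormones then counted as spread between arrays. How far this lowered the number that passed was not tested. By construction the difference then becomes a sum, and 77 named genes changed sign, to these log2 values: BGLU26 −2.27, EM −1.58, GRF4 −1.32, GH3-8 −1.31, ACO1 −1.20, rab25 −1.12, GA20OX3 −1.11, CIGR2 −0.95, CLPB-C −0.93, PCNA −0.90, QHB −0.74, gid1 −0.73, CASPL2A1 −0.71, VP1 −0.68, SWEET1b −0.67, 60SP0 −0.57, CL27 −0.50, INO1 −0.47, CL18 −0.39, PSBW −0.34, CLPB1 −0.32, SAPK4 −0.31, KO2 −0.30, RAB16B −0.24, SAPK6 −0.15, CAO −0.14, SWEET15 −0.13, CYP703A3 −0.086, WOX11 −0.085, RAmy3A −0.0091, PSY1 −0.0024, proT 0.028, SAPK9 0.040, RAmy2A 0.068, GRXS2 0.11, APX2 0.11, CBP1 0.14, KAO 0.16, peroxidase (LOC4344277) 0.17, SUS2 0.19, ETR3 0.26, JAZ4 0.31, PP2C53 0.35, SAPK7 0.38, ABA8OX1 0.42, IAA1 (LOC4334069) 0.43, PIP1;1 0.46, Os-UGD4 0.50, RR4 0.53, ARGOS 0.54, OSH71 0.56, RR6 0.56, PAL 0.56, XTH8 0.60, HSP17.9B 0.64, PIP1;2 0.81, PIP2;5 0.84, CDKG-1 0.85, PIP1;3 0.95, FDRMADS8 0.99, HOS66 1.0, BGLU16 1.05, CIN4 1.11, LOX1.1 1.15, TIP2;1 1.17, RR9 1.26, SWEET11 1.28, CASPL1U3 1.29, PIN2 1.34, GLO4 1.65, CASP1 1.77, GDCSH 1.84, EXPA8 1.90, RIXI 1.90, LTP110-A 1.99, 4CL-3 2.04, AT4 3.26. In 25 more the sign stayed but the difference no longer passed: AMT2-2 −0.38, CYCD5-2 −0.32, IAA12 −0.24, MCM3 −0.22, PSY2 −0.21, KRP1 −0.14, RAmy3D −0.099, RPA70b −0.079, JAZ7 −0.052, OPR10 −0.051, SAPK1 −0.035, ERG3 −0.028, GSK2 −0.020, LOGL6 −0.018, MADS55 −0.016, RAmy3E 0.0027, TIP3;2 0.032, EUI1 0.064, CRSH3 0.066, HSP18.6 0.077, MODD 0.11, CIGR1 0.12, KSL10 0.13, RCABP69 0.13, MFT2 0.18. The medians of 9 lists changed sign: LEA proteins and dehydrins −0.24, DNA replication −0.10, GA receptor and signalling −0.098, heat shock proteins −0.095, photosystem and chlorophyll −0.070, jasmonate 0.032, expansins and xyloglucan enzymes 0.094, lignin synthesis and Casparian strip 0.12, aquaporins 0.18. Some of the 77 named genes that changed sign did not pass when turned. Among these were ABA8OX1 (limma adjusted p = 0.203), the peroxidase (0.307), SAPK9 (0.758) and PSY1 (0.982). No paired analysis was possible because the hormones share no array number and the labels pair no arrays. Signal over background was not analysed here, so dim probes could not be set apart. Differences near 0.25 were often missed in the simulation, which changed far fewer probes than passed in the data.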
